A study of Mus musculus with 12 samples.

Results

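The genes described are 10 NF-κB factors and feedback genes of the mouse, namely Nfkb1, Nfkb2, Rel, Relb, Nfkbia, Nfkbiz, Bcl3, Tnfaip3, Birc3 and Icam1. They are given by a list of names with no threshold on a measured value, although earlier results of these data were known when it was chosen. Each symbol matched 1 of the 49671 Ensembl gene identifiers in the count tables. The RNA-seq libraries came from NIH 3T3, an established fibroblast line derived from mouse embryos, and form 4 groups of 3. Cells had received either a control siRNA (control cells) or Lap2 siRNA (Lap2-depleted cells), and each of these was either serum-starved in 0.3% FBS or stimulated with 15% FBS for 45 min. Lap2 siRNA targets every isoform of Lap2, a nuclear lamina-associated protein encoded by Tmpo. All groups carried an siRNA, were starved overnight and came from the same cell line, and a second siRNA against Lap2 was not analysed here, so that loss of Lap2 and other effects of this siRNA cannot be told apart. The comparisons address how gene expression responds to serum and how this differs once Lap2 is depleted. The sources used here do not state whether libraries of a group came from separate cultures, so p-values measure only the spread between these libraries, which may be technical.

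NF-κB is a family of transcription factors that bind DNA as dimers at κB sites. In resting cells, inhibitors of the IκB family hold most dimers in the cytoplasm. Signals from cytokine receptors, and more weakly from growth factors in serum, lead to degradation of these inhibitors, and the released dimers switch on genes that include the inhibitors themselves. In fibroblasts the pathway is best known for the rapid expression of cytokines, chemokines and adhesion molecules.

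Because κB sites are the letters through which these genes can respond to their own products, the promoter stretches that hold the κB consensus are shown. Promoters were taken from RefSeq on GRCm38.p6 as 250 bases before to 50 bases after each annotated start, and 7 of the 10 genes were found in that table. Nfkbiz, Nfkb1 and Relb were not among them. The κB consensus, searched on both strands, was present in 5 of the 7 genes (Nfkbia, Nfkb2, Rel, Tnfaip3 and Bcl3), and in 4.51% of all 32851 promoters or 5.14% of the 27025 genes in the table. Each line below gives a stretch 5′ to 3′ on the strand of the gene, with the match in capitals. Where the stretch lies within an annotated transcript of the gene it is kept to at most 30 bases.
Nfkbia, chr12:55492648-55492696, minus strand: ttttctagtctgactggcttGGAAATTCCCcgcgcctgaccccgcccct
Rel, chr11:23771031-23771081, minus strand: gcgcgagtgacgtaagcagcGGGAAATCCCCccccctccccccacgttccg
Nfkb2, chr19:46304689-46304718, plus strand: gatcgtcacGGGAATTCCCCccctcggggg
Tnfaip3, chr10:19015516-19015545, minus strand: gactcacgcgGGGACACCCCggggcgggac
Tnfaip3, chr10:19015411-19015432, minus strand: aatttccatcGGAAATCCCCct
Bcl3, chr7:19822734-19822763, minus strand: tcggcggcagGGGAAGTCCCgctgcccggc

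The matches lay at -29 to -20 from the start of Nfkbia, at -92 to -82 for Rel, at -39 to -29 for Nfkb2, at -125 to -116 and -12 to -3 for Tnfaip3, and at 3 to 12 for Bcl3. Nfkb2 held a further match at -11 to -2 that is not shown, and more at its other annotated starts. The AP-1 site, searched as TGACTCA or TGAGTCA on both strands, was found in Tnfaip3 alone of the 7, at -136 to -130. It was in 5.20% of all promoters or 5.95% of the genes. The CArG box, the site of serum response factor, was in 0 of the 7 and in 1.63% of all promoters or 1.81% of the genes. A match describes these letters only, and binding was not measured.

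Total counts ranged from 18026298 to 26265253 per library. Values below are normalized counts, which are reads per gene scaled by the TMM method to a common library size of 21092260, and they are compared between libraries and not between genes. A log2FC is the difference of the fitted group means on the log2 scale. A gene was called higher or lower at an adjusted p under 0.05 in the quasi-likelihood test of edgeR, where p-values were adjusted by Benjamini-Hochberg over the 18668 genes tested. All 10 genes passed the filter of a count above 1 in at least 3 libraries. The siRNA target Tmpo had 2775 to 2885 normalized counts in starved and 3019 to 3264 in stimulated control cells, against 982 to 1175 and 607 to 767 in Lap2-depleted cells. Its log2FC with Lap2 siRNA was -1.38 (SE 0.08) in 0.3% FBS and -2.17 (SE 0.08) in 15% FBS, with edgeR adjusted p of 8.73e-16 and 3.77e-19.

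Serum stimulation raised 7 of the 10 genes and lowered 1 in control cells, where 15.6% of all tested genes were called higher and 13.9% lower. The median log2FC of the 10 genes was 0.66, against -0.01 over all tested genes. In Lap2-depleted cells serum raised 8 and lowered 0, by edgeR, by DESeq2 and at an unadjusted p under 0.05, where 18.3% of all tested genes were called higher and 14.9% lower. The median there was 0.75, against 0.00 over all tested genes. Lap2 siRNA in 0.3% FBS lowered 6 of the 10 and raised 0, and these counts were also found with DESeq2 and at an unadjusted p under 0.05. In that comparison 18.6% of all tested genes were called lower and 17.8% higher, and the median log2FC was -0.54 for the 10 genes and 0.01 over all. In 15% FBS Lap2 siRNA lowered 5 and raised 1, with 12.1% of all tested genes called lower and 11.4% higher, and medians of -0.26 and 0.02. DESeq2 called 7 lower in 15% FBS, adding Nfkb1 and Birc3. The difference between the serum responses with the 2 siRNAs was called for 4 genes, of which Bcl3, Nfkbiz and Relb responded more positively in Lap2-depleted cells and Tnfaip3 less. Over all tested genes this difference was called higher for 7.09% and lower for 6.51%. The comparisons share libraries and are therefore not independent of each other. Because the 10 genes were chosen with earlier results of these data known, the counts and medians are a description.

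How the libraries are scaled shifts all genes together. Scaling to total counts moved the median log2FC of all genes by -0.21 and -0.23 for serum with control and Lap2 siRNA, and by 0.11 for Lap2 depletion under starvation. With that scaling serum raised 6 and lowered 2 of the 10 genes in control cells, with Birc3 (log2FC -0.35) joining Bcl3 among those that fell. Over all tested genes the calls became 1632 higher and 5847 lower in control cells, against 2915 and 2597 with TMM.

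**Figure D1:**
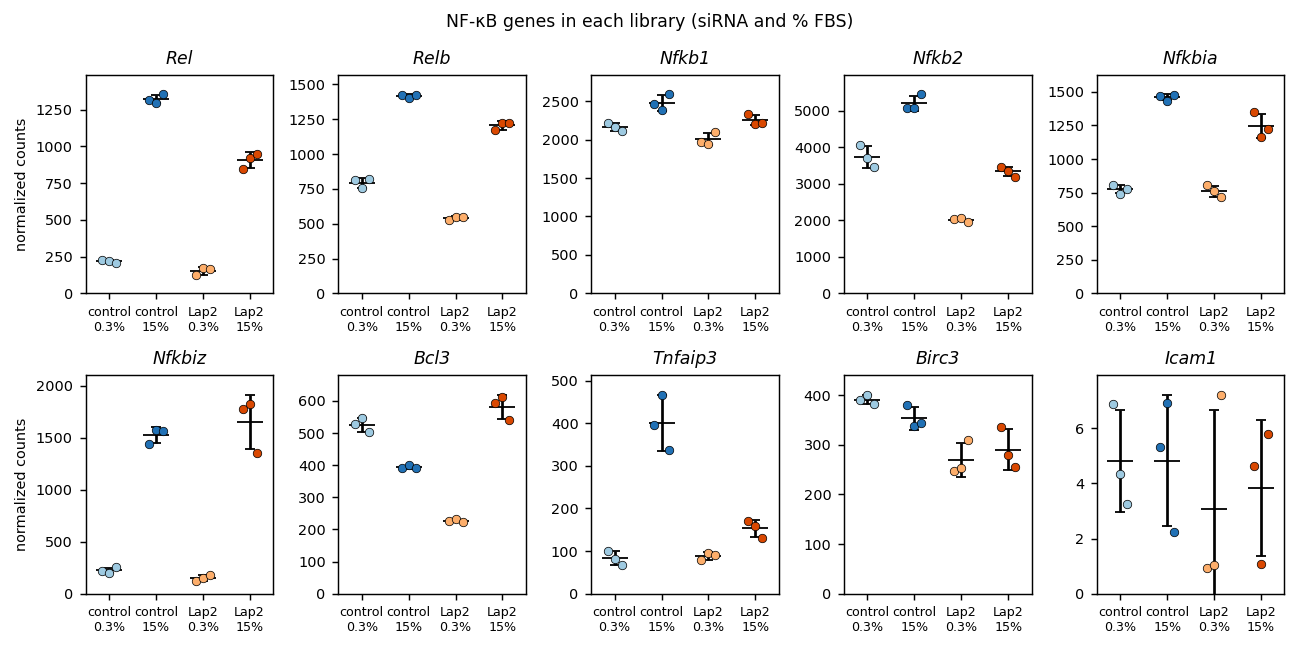
Normalized counts (vertical axes, linear from 0) of the 10 genes in each of the 12 libraries, by siRNA and FBS. Points are libraries, the horizontal mark is the mean and the bars are the SD of 3, cut at 0 for Icam1. Rel, Relb, Nfkb2, Nfkbia and Nfkbiz stand higher in 15% FBS with both siRNAs, Bcl3 falls with serum under control siRNA and rises under Lap2 siRNA, and Icam1 never exceeds 7.21.

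Among the genes for NF-κB subunits, Rel encodes c-Rel, a subunit with a transactivation domain (ENSMUSG00000020275, chr11:23736847-23770970, minus strand, mm10). Its normalized counts were 228, 221 and 209 in starved and 1317, 1296 and 1354 in stimulated control cells. In Lap2-depleted cells they were 125, 174 and 163 in 0.3% FBS and 848, 923 and 952 in 15% FBS. All stimulated libraries stood above all starved ones, and with either serum condition all Lap2 siRNA libraries stood below all control siRNA libraries. Serum raised Rel by a log2FC of 2.59 (SE 0.09, edgeR adjusted p = 1.66e-21) with control siRNA and of 2.57 (SE 0.10, edgeR adjusted p = 1.59e-20) with Lap2 siRNA. The difference between these responses was -0.02, with a 95% interval of -0.31 to 0.26. Lap2 siRNA lowered it by a log2FC of -0.52 (SE 0.11, edgeR adjusted p = 0.000299) in 0.3% FBS and of -0.54 (SE 0.08, edgeR adjusted p = 5.66e-06) in 15% FBS.

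Relb encodes RelB, the partner of p52 in the non-canonical pathway (ENSMUSG00000002983, chr7:19606217-19629438, minus strand). Control siRNA treated cells held 813, 754 and 818 normalized counts in 0.3% FBS and 1425, 1406 and 1422 in 15% FBS. Lap2-depleted cells held 528, 551 and 550 in 0.3% FBS and 1171, 1225 and 1224 in 15% FBS. The 4 groups did not overlap. Serum raised Relb by a log2FC of 0.84 (SE 0.07) with control siRNA and of 1.15 (SE 0.07) with Lap2 siRNA, with edgeR adjusted p of 7.73e-12 and 7.74e-15. The responses differed by 0.32 (SE 0.10, edgeR adjusted p = 0.0298), a call that was lost under 10 of the alternatives tried, with adjusted p of up to 0.113 (without starved control siRNA replicate 3). These were total-count scaling, the filter of any count and 8 of the 12 fits without a library, the call being kept without starved control replicate 2, stimulated control replicate 3, starved Lap2 siRNA replicate 1 or stimulated Lap2 siRNA replicate 1. Lap2 siRNA lowered Relb with a log2FC of -0.55 (SE 0.07, edgeR adjusted p = 2.1e-07) in 0.3% FBS and with a log2FC of -0.23 (SE 0.07, edgeR adjusted p = 0.0109) in 15% FBS. The latter call was lost with total-count scaling (-0.15) and without stimulated Lap2 siRNA replicate 1 (-0.21, edgeR adjusted p = 0.0555).

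Nfkb2 encodes p100, which is cut to p52 and also acts as an inhibitor (ENSMUSG00000025225, chr19:46304737-46312090, plus strand). Its counts were 4059, 3711 and 3455 in starved and 5078, 5079 and 5450 in stimulated control cells. They were 2040, 2060 and 1963 in starved and 3455, 3364 and 3201 in stimulated Lap2-depleted cells. The highest stimulated Lap2-depleted library stood level with the lowest starved control library. Lap2 siRNA lowered Nfkb2 by a log2FC of -0.89 (SE 0.07, edgeR adjusted p = 7.35e-13) in 0.3% FBS and of -0.64 (SE 0.06, edgeR adjusted p = 2.24e-09) in 15% FBS. Serum raised it by 0.48 (SE 0.06, edgeR adjusted p = 2.98e-07) with control siRNA and by 0.72 (SE 0.07, edgeR adjusted p = 7.98e-11) with Lap2 siRNA. The difference of 0.25 between these had an interval of 0.06 to 0.44 and missed the threshold (edgeR adjusted p = 0.0692). It passed without stimulated control siRNA replicate 3 (0.29, edgeR adjusted p = 0.0471). Psd overlaps Nfkb2 on the opposite strand and held 136 to 238 normalized counts, against 1963 or more for Nfkb2. AC114539.1 also overlaps Nfkb2 on the opposite strand and was not analysed here.

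Nfkb1 encodes p105, the precursor of p50 (ENSMUSG00000028163, chr3:135584655-135691547, minus strand). Its counts were 2214, 2157 and 2114 in starved and 2460, 2383 and 2587 in stimulated control cells, and 1969, 1948 and 2097 in starved and 2331, 2208 and 2221 in stimulated Lap2-depleted cells. Within each siRNA the starved and stimulated libraries did not overlap, although they lay close together. Gm43430 overlaps Nfkb1 on the same strand and did not exceed 6.92 normalized counts. Serum gave a log2FC of 0.20 (SE 0.06, edgeR adjusted p = 0.0161) with control siRNA and 0.17 (SE 0.06, edgeR adjusted p = 0.0386) with Lap2 siRNA, but with total-count scaling these turned to -0.01 and -0.06 and neither passed. Both calls were also lost with upper-quartile scaling (0.10 and 0.058, edgeR adjusted p of 0.241 and 0.526), and the call with Lap2 siRNA was lost with the filter of any count (edgeR adjusted p = 0.0921) and in the fit of only the groups compared (edgeR adjusted p = 0.0914). With control siRNA the call was also lost without stimulated control replicate 3 (0.16, edgeR adjusted p = 0.0818), and with Lap2 siRNA it was lost without any 1 of the other 11 libraries (adjusted p up to 0.173). Lap2 siRNA gave -0.11 (SE 0.06, edgeR adjusted p = 0.192) in 0.3% FBS and -0.14 (SE 0.06, edgeR adjusted p = 0.126) in 15% FBS. DESeq2 called the second of these lower (adjusted p = 0.0445), as did the fit without starved Lap2 siRNA replicate 1 (edgeR adjusted p = 0.0363).

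Nfkbia encodes IκBα, the inhibitor that NF-κB itself induces in the best-known feedback loop of the pathway (ENSMUSG00000021025, chr12:55489411-55492647, minus strand). The normalized counts were 806, 743 and 779 in starved and 1467, 1435 and 1477 in stimulated control cells. Starved Lap2-depleted cells had 803, 759 and 718, which overlapped the starved control siRNA range, and stimulated ones had 1348, 1167 and 1223. Serum raised Nfkbia by a log2FC of 0.91 (SE 0.07, edgeR adjusted p = 3.58e-12) with control siRNA and of 0.71 (SE 0.07, edgeR adjusted p = 1.71e-09) with Lap2 siRNA, and the difference of -0.20 did not pass (interval -0.41 to 0.01, edgeR adjusted p = 0.231). Lap2 siRNA gave -0.03 (interval -0.18 to 0.13) in 0.3% FBS and lowered it with a log2FC of -0.23 (SE 0.07, edgeR adjusted p = 0.0176) in 15% FBS. That call was lost with total-count scaling (-0.14), without stimulated control siRNA replicate 3 (-0.22) and without stimulated Lap2 siRNA replicate 2 (-0.18), where the edgeR adjusted p were 0.152, 0.0555 and 0.124.

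Nfkbiz encodes IκBζ, a nuclear IκB-type cofactor needed for a secondary set of NF-κB target genes (ENSMUSG00000035356, chr16:55811375-55838899, minus strand). It had 222, 201 and 252 normalized counts in starved and 1440, 1570 and 1565 in stimulated control cells. In Lap2-depleted cells it had 125, 147 and 181 in 0.3% FBS and 1779, 1825 and 1350 in 15% FBS. Its starved Lap2-depleted libraries all lay below the starved controls, whereas the stimulated groups overlapped. The serum response was the largest of the 10 genes, with a log2FC of 2.77 (SE 0.11, edgeR adjusted p = 3.24e-20) with control siRNA and 3.45 (SE 0.12, edgeR adjusted p = 3.89e-22) with Lap2 siRNA. The response was larger with Lap2 siRNA by 0.69 (SE 0.16, edgeR adjusted p = 0.00336). Lap2 siRNA lowered Nfkbiz with a log2FC of -0.58 (SE 0.13, edgeR adjusted p = 0.000781) in 0.3% FBS and gave 0.11 (interval -0.08 to 0.31, edgeR adjusted p = 0.457) in 15% FBS.

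Bcl3 encodes another nuclear IκB-type protein, which binds p50 and p52 homodimers (ENSMUSG00000053175, chr7:19808462-19822770, minus strand). Control siRNA treated cells had 527, 547 and 504 normalized counts in 0.3% FBS and fewer in 15% FBS, with 390, 400 and 391. Lap2-depleted cells had 227, 231 and 225 in 0.3% FBS and more in 15% FBS, with 593, 613 and 541. Within each siRNA the starved and stimulated libraries did not overlap, and the order of the conditions was opposite with the 2 siRNAs. Serum lowered Bcl3 by a log2FC of -0.42 (SE 0.09, edgeR adjusted p = 0.000282) with control siRNA and raised it by 1.35 (SE 0.09, edgeR adjusted p = 7.54e-14) with Lap2 siRNA. The difference between the responses was 1.77 (SE 0.13, edgeR adjusted p = 6.67e-12). Lap2 siRNA lowered Bcl3 with a log2FC of -1.21 (SE 0.09, edgeR adjusted p = 1.62e-12) in 0.3% FBS and raised it by 0.56 (SE 0.09, edgeR adjusted p = 7.57e-06) in 15% FBS. Each of these 5 calls held under all alternatives run. Gm16174 and Gm16175 overlap Bcl3 on the opposite strand, and neither exceeded 17.3 normalized counts in a library.

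**Figure D2:**
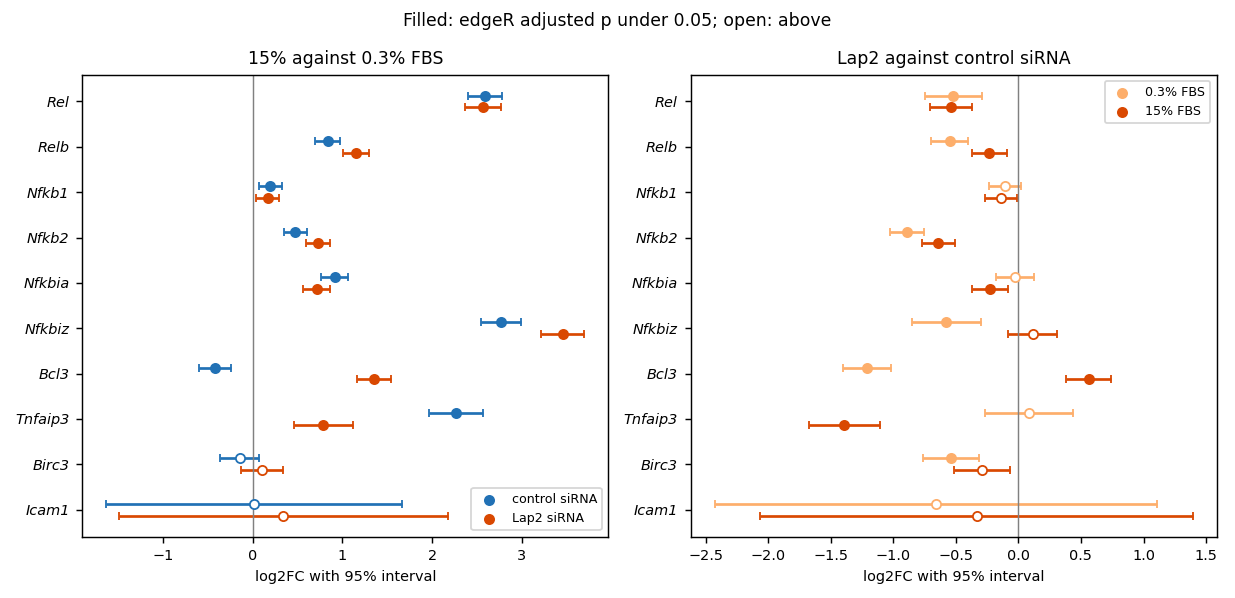
log2FC (horizontal axes) of the 10 genes with 95% intervals. The left panel shows 15% against 0.3% FBS with each siRNA and the right panel shows Lap2 against control siRNA in each FBS concentration. Filled points passed an edgeR adjusted p under 0.05 and open points did not. In the left panel the intervals of the 2 siRNAs lie furthest apart for Bcl3 (-0.42 and 1.35) and Tnfaip3 (2.26 and 0.78). They also lie apart for Nfkbiz (2.77 and 3.45) and, narrowly, Relb (0.84 and 1.15), and nearly coincide for Rel (2.59 and 2.57).

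Tnfaip3 encodes A20, a ubiquitin-editing enzyme that shuts off signalling to NF-κB (ENSMUSG00000019850, chr10:19000910-19015657, minus strand). Its counts were 100, 81.4 and 68.0 in starved and 397, 467 and 337 in stimulated control cells. In Lap2-depleted cells they were 79.0, 95.7 and 91.7 in 0.3% FBS and 171, 158 and 130 in 15% FBS. The starved groups overlapped, and every stimulated Lap2-depleted library was below every stimulated control siRNA library. Serum raised Tnfaip3 by a log2FC of 2.26 (SE 0.15, edgeR adjusted p = 2.28e-14) with control siRNA and by 0.78 (SE 0.16, edgeR adjusted p = 0.000206) with Lap2 siRNA. The responses differed by -1.48 (SE 0.22, edgeR adjusted p = 9.98e-06). Lap2 siRNA gave 0.09 (interval -0.26 to 0.44, edgeR adjusted p = 0.75) in 0.3% FBS and lowered the gene with a log2FC of -1.39 (SE 0.14, edgeR adjusted p = 1.93e-09) in 15% FBS. The calls for serum, for Lap2 siRNA in 15% FBS and for the difference held under all alternatives run.

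Birc3 encodes cIAP2, a ubiquitin ligase that acts at TNF receptor complexes (ENSMUSG00000032000, chr9:7848699-7873186, minus strand). Its counts were 391, 401 and 382 in starved and 381, 337 and 343 in stimulated control cells. They were 248, 253 and 309 in starved and 336, 280 and 255 in stimulated Lap2-depleted cells. All Lap2-depleted libraries stood below the control libraries of the same condition. Lap2 siRNA lowered Birc3 by a log2FC of -0.54 (SE 0.11, edgeR adjusted p = 0.000165) in 0.3% FBS, and in 15% FBS gave -0.29 (SE 0.11, edgeR adjusted p = 0.0546), which passed under 10 of the alternatives, DESeq2 among them (adjusted p = 0.0497). The fits without a library that called it were those without starved control replicate 2, without any 1 of the starved Lap2 siRNA replicates and without stimulated Lap2 siRNA replicate 1 (-0.41, edgeR adjusted p = 0.0138). Serum gave -0.14 (interval -0.36 to 0.07) with control siRNA and 0.10 (interval -0.13 to 0.33) with Lap2 siRNA, and neither passed.

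Icam1, an adhesion molecule for leukocytes and a classical NF-κB target (ENSMUSG00000037405, chr9:21015985-21028817, plus strand), was close to absent. The raw counts were 7, 5 and 3 in starved and 6, 7 and 2 in stimulated control cells, and 1, 1 and 7 in starved and 4, 1 and 6 in stimulated Lap2-depleted cells. All groups overlapped. With standard errors of the log2FC from 0.81 to 0.90 in the 4 comparisons of 2 groups, no change of this gene was detectable at this depth. Gm47079 overlaps Icam1 on the opposite strand and had 0 to 4.62 normalized counts, against 0.918 to 7.21 for Icam1, and with the strand setting of the counting unknown their reads may not be told apart.

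Levels were compared between genes only per length, as TPM, which divides the reads of a gene by its exon length (the union of GENCODE M21 exons) and by the library sum of such values, so that TPM lacks the TMM scaling. In starved control cells Nfkb2 was highest at 133 ± 10.8 TPM (SD, n = 3), followed by Nfkbia at 78.5 ± 2.59. Bcl3 (34.6 ± 1.73) and Relb (33.3 ± 1.17) came next with overlapping ranges. Nfkb1 (29.2), Birc3 (12.7), Nfkbiz (7.30), Rel (4.79), Tnfaip3 (1.87) and Icam1 (0.180) followed in TPM without overlap. After serum with control siRNA the order in TPM was Nfkb2 (166), Nfkbia (132), Relb (53.3), Nfkbiz (44.4), Nfkb1 (29.98), Rel (25.9), Bcl3 (23.2), Birc3 (10.3), Tnfaip3 (8.09) and Icam1 (0.162), and no neighbours overlapped. Nfkbiz and Rel thus moved up the order and Bcl3 and Birc3 moved down.

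In starved Lap2-depleted cells Nfkbia (82.4 TPM) and Nfkb2 (77.1 TPM) overlapped at the top of the order, followed by Nfkb1 (29.1), Relb (24.5), Bcl3 (16.1) and Birc3 (9.45). Nfkbiz (5.29 TPM) and Rel (3.63 TPM) overlapped there, and Tnfaip3 was at 2.16 TPM. After serum Nfkbia (115 TPM) and Nfkb2 (108 TPM) again overlapped, as did Nfkbiz (48.8 TPM) and Relb (46.1 TPM). Bcl3 (34.9), Nfkb1 (27.7), Rel (18.03), Birc3 (8.60), Tnfaip3 (3.14) and Icam1 (0.130) followed in TPM. The place of Nfkb1 depends on the length used, since over its longest transcript its level was 65.2 TPM in starved control cells, and Nfkbia and Nfkb2 changed places in Lap2-depleted cells when lengths of the longest transcript were used (64.5 and 70.5 TPM in 0.3% FBS).

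**Figure D3:**
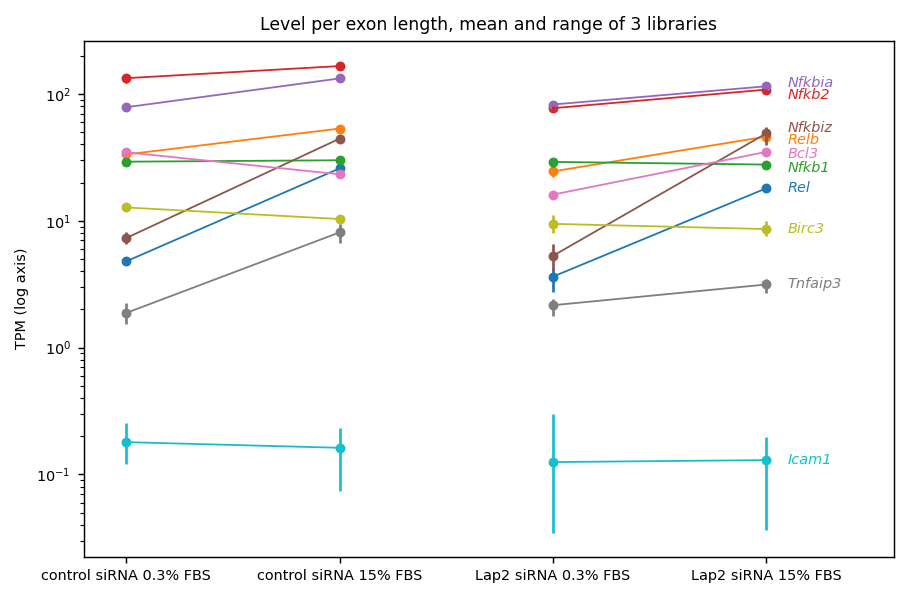
Level of the 10 genes per exon length in TPM (vertical log axis) in the 4 groups. Points are means, vertical bars run from the lowest to the highest of 3 libraries, and lines join the serum conditions within an siRNA. The lines of Nfkbiz and Rel are the steepest, Bcl3 slopes down with control siRNA (34.6 to 23.2) and up with Lap2 siRNA (16.1 to 34.9), and Icam1 stays far below the others.

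The other genes of the pathway were described by lists of the remaining subunit and inhibitors, of receptors and signal transducers, and of further target genes. Among 12 further subunit and inhibitor genes serum raised 4 and lowered 2 with control siRNA, and raised 6 and lowered 1 with Lap2 siRNA, with median log2FC of 0.11 and 0.22. The background shares for serum were 15.6% higher and 13.9% lower in control cells, 18.3% and 14.9% in Lap2-depleted cells, and apply to each list that follows. Rela, encoding the main transactivating subunit p65, rose with serum by 0.79 (SE 0.07) with control siRNA and 0.56 (SE 0.07) with Lap2 siRNA, with edgeR adjusted p of 2.78e-11 and 5.29e-08. Nfkbil1, a gene with partial likeness to IκB, fell by a log2FC of -0.85 (SE 0.10) with control siRNA and -0.42 (SE 0.10) with Lap2 siRNA. Tax1bp1, an adaptor of A20, rose by 0.39 (SE 0.06) with control siRNA. With Lap2 siRNA serum raised Nfkbie by 0.90 (SE 0.14) and Tax1bp1 by 0.35 (SE 0.06).

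Lap2 siRNA raised 3 and lowered 3 of these 12 in 0.3% FBS, where 17.8% of all tested genes were higher and 18.6% lower, and raised 2 and lowered 2 in 15% FBS, where the shares were 11.4% and 12.1%. Counts of this size lie near the background. Nfkbie, which encodes the inhibitor IκBε, fell with a log2FC of -1.48 (SE 0.13, edgeR adjusted p = 8.3e-11) in 0.3% FBS and with a log2FC of -0.57 (SE 0.12, edgeR adjusted p = 0.000686) in 15% FBS. Tnip1, whose product binds A20, fell with a log2FC of -0.61 (SE 0.08) and -0.22 (SE 0.08) in the same comparisons. Tax1bp1 rose by 0.39 and 0.34 (SE 0.06 each). The serum log2FC was more positive with Lap2 siRNA for 4 of the 12, beside 7.09% of all tested genes. It was less positive for 0 (edgeR and DESeq2), or 1 at an unadjusted p under 0.05, beside 6.51%. The difference was 0.90 (SE 0.18) for Nfkbie, whose serum log2FC was 0.002 with control and 0.90 with Lap2 siRNA. It was 0.45 (SE 0.13) for Tnip2 (-0.24 and 0.21) and 0.38 (SE 0.12) for Tnip1 (-0.27 and 0.11). For Nfkbil1 it was 0.43 (SE 0.15), where the fall with serum was smaller with Lap2 siRNA.

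Of 40 receptors and signal transducers 39 were tested, all but Cd40. Serum raised 17 and lowered 10 with control siRNA and raised 15 and lowered 8 with Lap2 siRNA, with median log2FC of 0.09 and 0.06. Tnfrsf12a, the receptor of the cytokine TWEAK, rose by 4.10 (SE 0.11) with control siRNA and 2.57 (SE 0.10) with Lap2 siRNA. Bcl10, an adaptor upstream of the IκB kinase, rose by 2.00 (SE 0.07) and 1.82 (SE 0.07). Traf5 rose by 1.40 (SE 0.08) with control siRNA and 1.39 (SE 0.08) with Lap2 siRNA. Map3k14, encoding the non-canonical kinase NIK, rose by 0.66 (SE 0.08) with control siRNA and 1.56 (SE 0.08) with Lap2 siRNA.

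Lap2 siRNA raised 9 and lowered 8 of these 39 in 0.3% FBS, and raised 7 and lowered 5 in 15% FBS, beside 17.8% and 18.6%, and 11.4% and 12.1%, of all tested genes. In 0.3% FBS it raised Tnfrsf12a by 1.77 (SE 0.11), Tnfrsf1b, encoding TNF receptor 2, by 1.29 (SE 0.11) and the kinase gene Tbk1 by 0.54 (SE 0.08). In 15% FBS it raised Tnfrsf1b by 0.99 (SE 0.11) and Tlr2, a receptor of bacterial lipoproteins, by 0.64 (SE 0.08). It lowered Il1rap, encoding a subunit of the interleukin-1 receptor, with a log2FC of -0.51 (SE 0.07) in 15% FBS. Tnfrsf12a (0.24, SE 0.09) and Tbk1 (0.03, SE 0.08) were not called in 15% FBS. In 0.3% FBS both Tlr2 (-0.33, SE 0.07) and Il1rap (-0.46, SE 0.08) were lowered. For Tlr2 the serum log2FC was -0.95 (SE 0.08) with control siRNA and 0.03 (SE 0.07) with Lap2 siRNA. The serum log2FC differed for 7 of the 39, beside 7.09% and 6.51% of all tested genes. It was more positive under Lap2 siRNA for 3 and less positive for 4. A more positive log2FC was not always a larger response, as the values of Tlr2 show. Tnfrsf12a differed by -1.53 (SE 0.14), Tlr2 by 0.97 (SE 0.11) and Map3k14 by 0.90 (SE 0.12).

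Of 36 further target genes 27 were tested, and those not tested included Tnf, Il1b and Ccl20. Nfkbie belongs to this list as well. Serum raised 15 and lowered 2 of the 27 with control siRNA (median log2FC 1.17) and raised 18 and lowered 2 with Lap2 siRNA (median 1.08), beside medians of -0.01 and 0.00 over all tested genes. Ptgs2, encoding the inducible cyclooxygenase, rose by 8.29 (SE 0.09) with control siRNA and 6.17 (SE 0.08) with Lap2 siRNA. The immediate-early gene Ier3 rose by 4.41 (SE 0.08) and 3.56 (SE 0.07). The cytokine gene Lif rose by 7.16 (SE 0.13) with control siRNA, and the stress gene Gadd45b by 4.30 (SE 0.09) with Lap2 siRNA. Lif and Gadd45b were picked by their adjusted p in those comparisons, and their values with the other siRNA are not given here. Many of these genes are also known as targets of other serum-responsive factors.

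Lap2 siRNA raised 9 and lowered 10 of the 27 in 0.3% FBS and raised 7 and lowered 6 in 15% FBS, with the same shares of all tested genes as for the receptors. Ptgs2 rose by 2.22 (SE 0.07) in 0.3% FBS. Tapbp, encoding the peptide-loading factor tapasin, fell with a log2FC of -1.88 (SE 0.07) in 0.3% FBS and -1.48 (SE 0.07) in 15% FBS, and the protease gene Mmp9 fell with a log2FC of -1.95 (SE 0.09) and -0.85 (SE 0.08). Lif fell with a log2FC of -0.94 (SE 0.08) in 15% FBS. The serum log2FC was more positive under Lap2 siRNA for 8 and less positive for 5, beside 7.09% and 6.51% of all tested genes. Among them were Ptgs2 (-2.12, SE 0.09), Ier3 (-0.85, SE 0.10) and Mmp9 (1.09, SE 0.12).

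**Figure D4:**
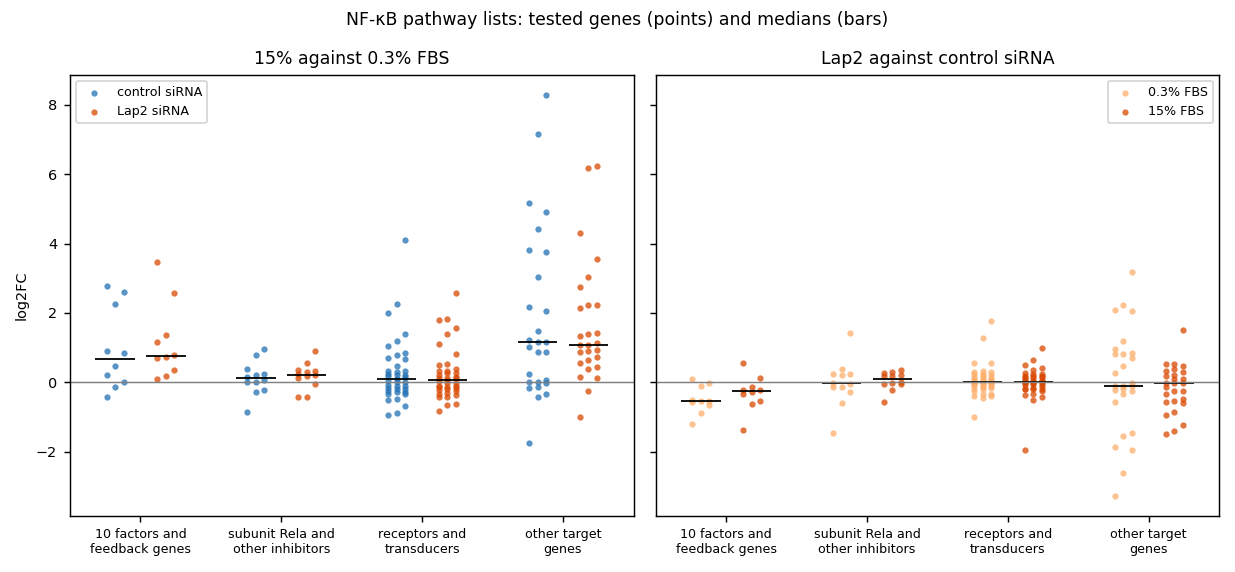
log2FC (vertical axis) of every tested gene in the 10 NF-κB genes and the 3 further pathway lists, for serum (left) and for Lap2 siRNA (right). Points are genes and bars are list medians. The further target genes spread most widely, with serum medians of 1.17 and 1.08, and the 10 genes have the lowest medians with Lap2 siRNA, -0.54 in 0.3% FBS and -0.26 in 15% FBS.

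Other cell types and double-stranded RNA responses can also bring NF-κB genes, and their markers were read in the same libraries. The 8 fibroblast markers summed to 505059 to 610469 normalized counts in starved and 610483 to 678856 in stimulated Lap2-depleted cells, against 801932 to 832780 and 854499 to 939787 in control cells. Serum raised 3 and lowered 1 with control siRNA and raised 5 and lowered 3 with Lap2 siRNA. By edgeR, Lap2 siRNA lowered 5 of the 8 and raised 2 in 0.3% FBS, beside 18.6% of all tested genes lower and 17.8% higher. DESeq2 called 4 lower and 3 higher there. In 15% FBS Lap2 siRNA lowered 6 and raised 0 (edgeR and DESeq2; 2 were higher at an unadjusted p under 0.05), beside 12.1% lower and 11.4% higher. Col3a1 and Col1a1, fibrillar collagen genes, were lowered with log2FC of -1.67 and -0.78 in 0.3% FBS and -0.87 and -0.58 in 15% FBS (SE 0.07 and 0.08 each). The intermediate filament gene Vim was lowered in 0.3% FBS (-0.49, SE 0.06) and the surface marker gene Thy1 in 15% FBS (-0.56, SE 0.07). Serum raised Thy1 (1.41 and 1.04, SE 0.07 each) and Vim (0.30 and 0.41, SE 0.06 each) with both siRNAs, Fn1 with control siRNA (0.41, SE 0.07) and Col3a1 with Lap2 siRNA (0.73, SE 0.07). In each of these comparisons the genes named are the 3 with the smallest adjusted p, and genes called in the other direction are not named there. The serum responses differed by 0.79 (SE 0.10) for Col3a1, -0.61 (SE 0.10) for Fn1 and -0.38 (SE 0.10) for Thy1. All libraries came from the same cell line, and bulk counts do not tell a change in all cells from one in some of them. The 7 leukocyte markers summed to 86.3 to 124.9 normalized counts with control siRNA and 147 to 180 with Lap2 siRNA. Itgam was at 0 in every library, Adgre1 did not exceed 0.866 and Ptprc did not exceed 11.6. Most of these sums thus lay in the other leukocyte markers, which are not named here. With Lap2 siRNA 2 of the 5 tested (0.3% FBS) and 1 (15% FBS) were called higher, beside 17.8% and 11.4% of all tested genes. With serum 1 was called higher with control siRNA and 0 with Lap2 siRNA (edgeR and DESeq2; 1 at an unadjusted p under 0.05). Endothelial markers summed to at most 37.6, with 1 of 3 tested called lower by Lap2 siRNA in 15% FBS. Epithelial markers summed to at most 24.3, and 0 of 2 tested were called in any comparison by edgeR or DESeq2 (1 was lower for serum with control siRNA at an unadjusted p under 0.05).

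Of 11 genes for double-stranded RNA sensing and interferon responses, 10 were tested and Ifnb1 was at 0 in every library. Their summed level was 2913 to 3128 normalized counts in starved control siRNA, 2578 to 2879 in stimulated control siRNA, 2539 to 2811 in starved Lap2 siRNA and 2770 to 3084 in stimulated Lap2 siRNA libraries. Lap2 siRNA lowered 6 and raised 0 of them in 0.3% FBS by edgeR (DESeq2 lowered 4 and raised 0, and 0 were higher at an unadjusted p under 0.05), with a median log2FC of -1.07, beside 18.6% lower and 17.8% higher over all tested genes. In 15% FBS it raised 1 and lowered 0 (2 were lower at an unadjusted p under 0.05 and 0 by DESeq2), beside 11.4% higher and 12.1% lower. Serum raised 0 and lowered 1 with control siRNA, and raised 3 and lowered 0 with Lap2 siRNA, where DESeq2 and an unadjusted p under 0.05 also gave 0 for each of these zeros. The part of these marker genes in the changes of the NF-κB genes was not tested.

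For the 4 genes whose serum responses differed between the siRNAs, the genes with the most similar profile were sought among 10440 genes. The measure was the root-mean-square difference of log2 CPM over the 12 libraries after each profile was centred. Nearest to Bcl3 were Spsb1 (0.136), Sfrp1 (0.189) and Cdo1 (0.197). Nearest to Tnfaip3 were Cdc42ep3 (0.206), Gprc5a (0.333) and Pkp2 (0.334), and nearest to Nfkbiz were Ier5 (0.285), Fosl2 (0.301) and Noct (0.314). Relb had the closest neighbours, in Stat3 (0.0824), Fam214b (0.0868) and Rnf19a (0.0968). All points share the 12 libraries, and the values are a description.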

How the data were processed

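The authors prepared libraries from RNA depleted of ribosomal RNA with a directional kit, aligned the reads with TopHat2 in Chipster to mm10 and deposited counts per gene made with HTSeq, without normalization. Tool versions, the annotation and the strand setting of the counting are not given in the sources used here, so reads of genes that overlap on opposite strands may not be told apart. A gene symbol was found for 99.3% of the identifiers. Genes counted above 1 in no fewer than 3 libraries were fitted with 1 mean per group in edgeR 4.0.16 (R 4.3.3) with TMM normalization, glmQLFit and glmQLFTest, and p-values were adjusted over all 18668 tested genes by Benjamini-Hochberg. Intervals of the log2FC are 95% intervals from the same fit. Exon lengths came from GENCODE M21 and promoters from RefSeq. The script was checked on simulated counts.

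The members and the lists were chosen with earlier results of these data known. Named genes are the members, Tmpo, for each list and comparison the 3 smallest adjusted p among genes averaging 100 or more normalized counts, and the 3 genes nearest to each member whose serum responses differed (members averaging 50 or more). Itgam, Adgre1, Ptprc and Ifnb1, genes that were not tested, and overlapping genes were named in addition, after their values were seen. Of the interferon-list genes that this rule picks, Eif2ak2 and Ddx58 had log2FC with Lap2 siRNA of -0.06 and -0.19 in 0.3% FBS and 0.19 and -0.03 in 15% FBS, with serum of -0.17 and -0.13 (control siRNA) and 0.09 and 0.03 (Lap2 siRNA), and the other is not reported here. Groups came from the sample labels, and replicate numbers follow the order of the running numbers in those labels within each group.

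Alternatives were DESeq2 1.42.0, total-count and upper-quartile scaling, 3 other filters on low counts, a replicate block, fits limited to the groups compared, and each library left out in turn.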

Additional observations from a re-analysis of the deposited data

Results flagged for a closer look

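The serum responses with Lap2 siRNA and with control siRNA differed for 4 of the 10 NF-κB genes by a test of the difference itself in the edgeR fit. For Bcl3 the log2FC with Lap2 siRNA minus that with control siRNA was 1.77 (edgeR adjusted p = 6.67e-12), and the 2 responses had opposite signs. For Tnfaip3 it was -1.48 (edgeR adjusted p = 9.98e-06), with both responses positive. For Nfkbiz it was 0.69 (edgeR adjusted p = 0.00336), where the starved level was lower with Lap2 siRNA and the stimulated groups overlapped. For Relb it was 0.32 (edgeR adjusted p = 0.0298), and this call was lost under 10 of the alternatives.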

How the results depend on the processing

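Of the 32 comparisons in which an NF-κB gene was called, 27 kept the call and the direction under every alternative run. The exceptions were Nfkb1 for serum with either siRNA, Nfkbia and Relb for Lap2 siRNA in 15% FBS, and Relb for the difference between the serum responses. With total counts, calls over all genes became 1632 higher and 5847 lower for serum with control siRNA, 1658 and 5951 for serum with Lap2 siRNA, 4692 and 2638 for Lap2 siRNA in 0.3% FBS, and 3471 and 1678 for Lap2 siRNA in 15% FBS, while 2 of the 10 were lower for serum with control siRNA and 3 for Lap2 siRNA in 15% FBS. For serum, upper-quartile scaling gave 2183 higher and 3878 lower (control siRNA) or 2383 and 3942 (Lap2 siRNA).

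Signs turned for Nfkb1 with serum under total counts (-0.012 and -0.062 for control and Lap2 siRNA). Other turned signs were of uncalled values. Under total counts they were Icam1 (-0.18) for serum with control siRNA, Birc3 (-0.13) for serum with Lap2 siRNA, and Nfkbia (0.082) and Nfkb1 (0.00068) for Lap2 siRNA in 0.3% FBS. With upper-quartile scaling they were Icam1 (-0.077, control siRNA) and Birc3 (-0.0074, Lap2 siRNA) for serum. With each library left out in turn the log2FC of Icam1 ranged from -0.31 to 0.35 and from -0.11 to 1.83 for serum with control and Lap2 siRNA, from -0.79 to 0.097 for Lap2 siRNA in 15% FBS, and from -0.14 to 1.81 for the difference between the responses. Birc3 ranged from -0.013 to 0.19 for serum with Lap2 siRNA, Nfkbia from -0.053 to 0.023 and Tnfaip3 from -0.015 to 0.25 for Lap2 siRNA in 0.3% FBS, and Nfkb1 from -0.074 to 0.011 and Rel from -0.19 to 0.048 for the difference. The cause was not tested.

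Leaving out each library in turn, serum with control siRNA gave 2505 to 3482 genes higher and 2162 to 2861 lower, with 6 to 7 and 1 of the 10. Serum with Lap2 siRNA gave 2951 to 3464 and 2276 to 3064, with 7 to 8 and 0 of the 10. Lap2 siRNA gave 3059 to 3588 and 2865 to 3528 in 0.3% FBS (0 and 6 of the 10), and 1425 to 2431 and 1894 to 2746 in 15% FBS (1 and 4 to 7). The difference gave 852 to 1556 and 935 to 1973 (2 to 4 and 1 of the 10).

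Libraries with the same replicate number did not deviate together (r from -0.03 to 0.04 over 18 pairs, and 3 of 12 libraries correlated best with their own number). Pairs with different numbers gave r from -0.04 to 0.04. The numbers follow label order and the labels name no pairs, so they were not taken as pairs. Genes with few counts weigh as much as others in r, so a weak shared batch may not show. With the replicate block, 7 in place of 8 of the 10 were higher for serum with Lap2 siRNA, as Nfkb1 missed the threshold (0.17, edgeR adjusted p = 0.0505), and the other counts of the 10 stayed as without the block. Icam1 was not tested under the 2 stricter filters, and fits of only the groups compared do not apply to the difference between the responses. At its counts of 1 to 7 per library, Icam1 was limited by depth.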
